A study of Mus musculus with 6 samples.

Results

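Most of the genes described here carry lipid out of cells, between particles or back into cells. The set is 9 genes listed by name. Apoe, Clu and Apod encode secreted lipid carriers, and Pltp and Lpl encode secreted proteins that move or cut lipid on particles. Abca1 and Abcg1 encode lipid exporters, and Lrp1 and Scarb2 encode membrane receptors, of which that of Scarb2 is lysosomal. All 9 names were found among the 47643 genes of each library. The data are RNA sequencing of ependymal cells, the ciliated cells that line the brain ventricles, taken from the ventricular-subventricular zone of adult mouse brain and sorted for GFP. The CKO group has 3 libraries from mice in which tamoxifen had induced deletion of Ccn1, a secreted matrix-associated signalling protein, together with GFP in the ependymal cells. The CTR group has 3 libraries of GFP-sorted ependymal cells from control mice that also received tamoxifen, and both groups were collected 2 days after it. The gate was set by hand against wild-type cells, per the labels. The sources used here do not give the alleles of the control mice, the Cre line that drives recombination, the age of the animals, or whether a library is 1 animal or a pool. The p-values therefore measure the spread between these libraries, which may be technical.

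Brain cells receive little lipoprotein from blood and build their own particles. ABC transporters load cholesterol and phospholipid onto apolipoproteins, transfer proteins and lipases remodel the particles, and receptors of the LDL receptor family take them up. Liver X receptors (LXR), nuclear receptors activated by oxysterols, raise transcription of Abca1, Abcg1, Apoe, Pltp and Lpl when cellular sterol is high. Levels below are deposited TPM, an estimate of transcript abundance corrected for length and depth, which can be compared between genes. Differences are log2 of CKO over CTR from edgeR's quasi-likelihood test on the estimated counts, and a gene was called where the p adjusted over all genes tested was under 0.05.

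The upstream windows of 4 members are printed, those of Apoe, the most abundant of the 9, Pltp, the abundant transfer gene, Abca1, an exporter well known as an LXR target, and Apod, the least abundant. Each runs from 250 bases before to 50 after a RefSeq start site on GRCm38.p6, and all lie on the minus strand: Apoe at chr7:19699139-19699438, Pltp at chr2:164857659-164857958, Abca1 at chr4:53159846-53160145 and Apod at chr16:31314759-31315058. Capitals mark 3 searched motifs on either strand, the TATA box TATAAA, the GC box GGGCGG, and an LXR element made of GGTTA and CGGTCA with any 4 bases between them. No searched motifs overlap in these windows.
Apoe: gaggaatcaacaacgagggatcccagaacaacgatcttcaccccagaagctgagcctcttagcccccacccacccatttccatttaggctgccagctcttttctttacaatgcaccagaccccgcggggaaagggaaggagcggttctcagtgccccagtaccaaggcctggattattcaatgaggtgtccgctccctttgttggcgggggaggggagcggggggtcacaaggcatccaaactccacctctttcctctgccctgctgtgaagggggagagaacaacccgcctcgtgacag
Pltp: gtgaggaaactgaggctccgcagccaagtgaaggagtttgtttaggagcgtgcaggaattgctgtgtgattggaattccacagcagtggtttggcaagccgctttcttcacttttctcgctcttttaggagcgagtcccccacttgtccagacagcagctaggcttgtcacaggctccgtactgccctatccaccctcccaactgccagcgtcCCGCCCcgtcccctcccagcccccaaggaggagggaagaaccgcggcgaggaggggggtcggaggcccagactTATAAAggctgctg
Abca1: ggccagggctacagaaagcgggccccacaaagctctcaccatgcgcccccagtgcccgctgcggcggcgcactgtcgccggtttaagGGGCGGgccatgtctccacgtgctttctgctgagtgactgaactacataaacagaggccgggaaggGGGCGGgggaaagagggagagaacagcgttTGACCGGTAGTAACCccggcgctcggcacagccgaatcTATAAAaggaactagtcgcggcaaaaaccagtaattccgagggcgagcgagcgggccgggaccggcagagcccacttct
Apod: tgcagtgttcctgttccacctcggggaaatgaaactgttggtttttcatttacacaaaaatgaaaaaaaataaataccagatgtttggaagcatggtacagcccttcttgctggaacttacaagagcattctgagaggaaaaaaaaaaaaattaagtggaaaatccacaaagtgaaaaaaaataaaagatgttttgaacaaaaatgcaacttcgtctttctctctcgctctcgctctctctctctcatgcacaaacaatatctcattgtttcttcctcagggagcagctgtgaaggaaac

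The Abca1 window held all 3 motifs: the LXR element, read as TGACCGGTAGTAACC on the gene's strand, starts at -67 from the start site, TATAAA at -29, and GC boxes at -163 and -97. That LXR element was in 4 of the 32817 RefSeq mouse windows of the same length (0.0122%), against 13.6% for TATAAA and 35.6% for GGGCGG. Only this spelling of an LXR element was searched, and its fixed letters are those of the Abca1 element itself. The hit in Abca1 may therefore follow from the choice of spelling and is not evidence about regulation. Neither the rarity of this spelling nor its absence from a window speaks to other spellings. The Pltp window held a GC box at -37 and TATAAA at 37. These letters were not in the Apod window or in the Apoe window printed, which lies at the annotated gene start. Apoe has 2 further windows at start sites inside the gene, not printed, of which the one at chr7:19698572-19698871 holds TATAAA at -96 and, on the other strand and overlapping it, at -100. The windows differed in base composition, with 62.7% G and C and 26 CpG in Abca1, 59.0% and 13 in Pltp, 57.7% and 10 in Apoe, and 37.3% and 4 in Apod, beside medians of 52.7% and 7 over all windows. Windows were matched for 6 of the 9 members; those of Lrp1 and Scarb2 are not printed, and Clu, Lpl and Abcg1 had none.

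The libraries held 13401499 to 15689579 estimated counts. Ccn1 (chr3:145646976-145649981), the deleted gene, had 411, 238 and 524 counts in CKO libraries and 1665, 2037 and 2224 in CTR libraries, or 18.0 ± 6.10 and 85.3 ± 18.9 TPM (SD, n = 3 each). The groups did not overlap, with a log2 difference of -2.22 ± 0.38 (SE, edgeR, unadjusted p = 0.000415, adjusted p = 0.99999), and every CKO library still had Ccn1 counts. edgeR called 0 of 11574 genes at an adjusted p under 0.05 (0%), with 318 at an unadjusted p under 0.05 (2.75%), and limma-voom also called 0, while DESeq2 called 200 of 11823 (1.69%), Ccn1 among them. CTR 1 had the fewest genes with a count, 12460 against 13024 to 14530 in the other libraries. It also had the lowest Foxj1, the master transcription factor of motile cilia, with 115 counts against 354 to 558, but the highest sum of 10 ependymal markers, 29684 TPM. The differences of Abcg1, Abca1 and Lrp1, where CTR 1 was the lowest or highest CTR library, are given with and without it. CTR 1 was also the lowest CTR library in TPM for Apoe, Clu and Pltp. Without CTR 1 their log2 differences were 0.041, -0.079 and -0.12.

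The 9 genes ran from among the most abundant transcripts of ependymal cells down to 0, and none of the 7 that could be tested passed edgeR's threshold between genotypes. Apoe, Clu and Pltp were abundant, and their folds of CKO over CTR were estimated at 1.03, 0.948 and 0.893. The exporters and receptors were low to moderate, and Lpl and Apod were at or near 0. Together the 9 genes made up 28655 to 34524 TPM in CKO libraries and 28632 to 33462 TPM in CTR libraries, nearly all of it from the secreted members. The 4 membrane proteins summed to 75.4 to 81.8 TPM in CKO libraries and 47.0 to 84.2 TPM in CTR libraries, where CTR 1 was the lowest and the other two had 74.6 and 84.2 TPM. In bulk samples, fewer cells of a type and less RNA per cell cannot be told apart.

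**Figure D1:**
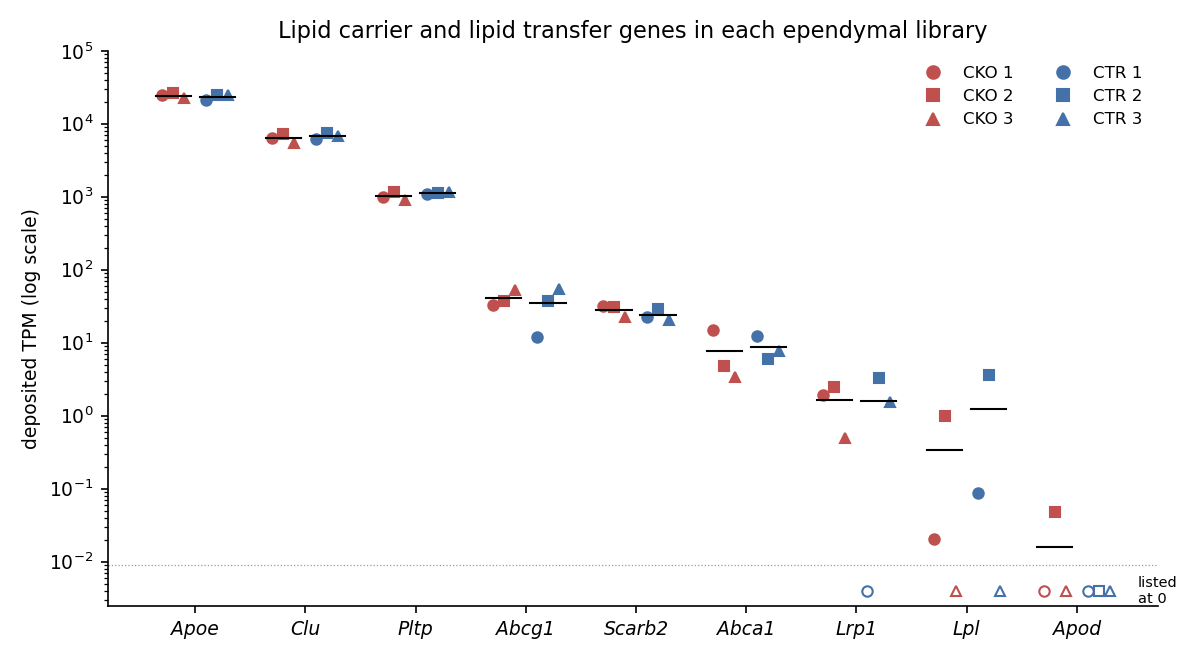
Deposited TPM on a log axis for each of the 9 genes, ordered by mean level, with CKO libraries in red left of CTR libraries in blue, bars at group means and open symbols for genes listed at 0. Apoe lies at or above 21419 TPM in every library, and Apod has a value in CKO 2 alone.

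Apoe (chr7:19696109-19699188, minus strand) encodes the main apolipoprotein of brain particles. It had 24669, 25978 and 22175 TPM in CKO libraries, against 21419, 24894 and 24465 TPM in CTR libraries, or 24274 ± 1932 and 23593 ± 1895 TPM (SD, n = 3 each). The groups overlapped, with both the highest library and the second lowest in CKO. This 1 gene held 2.14% to 2.60% of all TPM and ranked between place 2 and place 4 of all genes in each library. On TMM-scaled CPM, counts scaled to library size, Apoe averaged 20485 ± 1109 in CKO libraries and 19934 ± 92.1 in CTR libraries (SD, n = 3 each). The fold was 1.03, with a 95% interval of 0.916 to 1.15, so a change of the size seen for Ccn1 lies outside it (edgeR, log2 0.039 ± 0.072 SE, unadjusted p = 0.598, adjusted p = 0.99999). The exact two-sided permutation test on CPM gave p = 0.4, where 3 libraries against 3 cannot go below 0.1.

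Clu (chr14:65968483-65981547, plus strand) encodes clusterin, also called apolipoprotein J, a secreted chaperone that travels on lipoprotein particles. Its levels were 6342, 7312 and 5509 TPM in CKO libraries, against 6087, 7354 and 6762 TPM in CTR libraries. The highest library was CTR 2 and the lowest CKO 3, and the groups overlapped. The means were 6387 ± 902 TPM in CKO and 6734 ± 634 TPM in CTR (SD, n = 3 each), which put Clu between place 11 and place 15 of all genes. The log2 difference was -0.077 ± 0.10 (SE, edgeR, unadjusted p = 0.469, adjusted p = 0.99999), with a fold interval of 0.805 to 1.12.

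Apod (chr16:31296192-31314808, minus strand) encodes a lipocalin that binds arachidonic acid and sterols and that glia are known to secrete. It was listed at 0 in 5 libraries and had 1.01 estimated counts, or 0.048 TPM, in CKO 2. A count of 0 allows up to 3 counts, which is 0.191 to 0.224 CPM in these libraries, counting error only. At this depth Apod was not detectable above that limit in any library, and the filter on low counts left it out of the test. Apoe exceeded Clu in all 6 libraries by 3.39 to 4.03 times, while Apod was the lowest of the 9.

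Pltp (chr2:164839518-164857711, minus strand) encodes phospholipid transfer protein, which moves phospholipid between particles. CKO libraries had 981, 1158 and 893 TPM, against 1079, 1136 and 1151 TPM in CTR libraries, or 1010 ± 135 and 1122 ± 37.8 TPM (SD, n = 3 each). In TPM, CKO 2 was the highest of all 6, and the other CKO libraries lay below every CTR library, so the groups overlapped by 1 library. On the TMM-scaled CPM used by the tests, CTR 1 was the highest at 1669 and CKO 2 followed at 1569. Pltp ranked between place 97 and place 137 of all genes. The log2 difference was -0.16 ± 0.12 (SE, edgeR, unadjusted p = 0.220, adjusted p = 0.99999), with a fold interval of 0.734 to 1.09, and the exact permutation test gave p = 0.3. The Pltp gene overlaps Ctsa, a lysosomal protease gene on the opposite strand, over 1515 bases; Ctsa had 11.3 to 67.8 TPM, and the sources used here do not say whether counting used strand.

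Lpl (chr8:68880491-68907448, plus strand) encodes lipoprotein lipase, which cuts triglyceride on particles. It had 1, 44.9 and 0 estimated counts in CKO libraries, against 5, 166 and 0 in CTR libraries, or 0.021, 0.988 and 0 TPM against 0.087, 3.65 and 0 TPM. Library 2 of each group held nearly all the counts, and the filter on low counts left Lpl out of the test. Of the LXR targets among the members, Apoe and Lpl therefore stood at opposite ends of the order of levels.

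The exporters were far below the carriers. Abcg1 (chr17:31057675-31117988, plus strand) encodes the transporter that passes sterol to particles already formed. Its levels were 33.1, 36.9 and 52.3 TPM in CKO libraries, against 12.2, 36.7 and 54.7 TPM in CTR libraries. CTR 1 was the lowest and CTR 3 the highest, so CTR spanned the whole range of CKO. The log2 difference was 0.28 ± 0.48 (SE, edgeR, unadjusted p = 0.569, adjusted p = 0.99999). Without CTR 1 it was -0.089, so 1 library set the sign, and its 95% interval with all libraries ran from -0.83 to 1.40.

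Abca1 (chr4:53030787-53159895, minus strand) encodes the transporter that gives sterol and phospholipid to lipid-poor apolipoproteins, and its upstream window holds the LXR element printed above. It had 15.1, 4.84 and 3.40 TPM in CKO libraries, against 12.5, 5.94 and 7.67 TPM in CTR libraries. Library 1 of each group was the highest of its group, and CKO held both the highest and the lowest value. Means were 7.79 ± 6.40 TPM in CKO and 8.69 ± 3.39 TPM in CTR (SD, n = 3 each), with a log2 difference of -0.19 ± 0.62 (SE, edgeR, unadjusted p = 0.770, adjusted p = 0.99999). It was -1.12 without CKO 1, and positive without CKO 2 (0.078), CKO 3 (0.16) or CTR 1 (0.27), so the sign depended on single libraries. The levels of the 2 exporters kept no fixed ratio across libraries: Abcg1 over Abca1 in TPM was 2.19, 7.61 and 15.4 in CKO libraries, against 0.975, 6.19 and 7.13 in CTR libraries.

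Lrp1 (chr10:127538161-127621148, minus strand) encodes a large endocytic receptor for Apoe-bearing particles. It had 90, 427 and 93 estimated counts in CKO libraries, against 0, 569 and 308 in CTR libraries, or 1.94, 2.47 and 0.502 TPM against 0, 3.28 and 1.55 TPM. Library 2 was the highest in both groups, and CTR 1 was listed at 0. The log2 difference was -0.44 ± 1.83 (SE, edgeR, unadjusted p = 0.816, adjusted p = 0.99999), with a 95% interval of -4.68 to 3.80 that bounds little. It was -1.02 without CTR 1, -1.61 without CKO 2 and 0.62 without CTR 2, and it was positive in limma-voom at 1.94 and with the replicate number as a block at 0.64.

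The counts and TPM of Lrp1 were not tied alike in every library. Counts divided by TPM give the transcript length used in quantification, here set relative to that of Clu in the same library. For Lrp1 this relative length was 2.39 in CKO 1, against 9.51 to 9.56 in the other 4 libraries with counts, a 4.0-fold gap, whereas for Apoe, Pltp, Abca1, Abcg1 and Scarb2 it varied by at most 1.01-fold over all 6. The annotation gives Lrp1 10 transcripts of 292 to 14888 exonic bases. The TPM of 1.94 in CKO 1 therefore rests on a shorter transcript length than in the other libraries, and its count of 90 was the lowest of the 5 above 0.

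Scarb2 (chr5:92441314-92506833, minus strand) encodes LIMP-2, a lysosomal membrane protein that carries glucocerebrosidase to lysosomes and belongs to the CD36 family. Its levels were 31.6, 31.2 and 22.2 TPM in CKO libraries, against 22.4, 28.6 and 20.3 TPM in CTR libraries. CKO 1 and CKO 2 were the highest and CTR 3 the lowest, and the groups overlapped. The means were 28.3 ± 5.32 TPM in CKO and 23.8 ± 4.32 TPM in CTR (SD, n = 3 each). The log2 difference was 0.25 ± 0.27 (SE, edgeR, unadjusted p = 0.388, adjusted p = 0.99999), and the exact permutation test gave p = 0.3.

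Of the 7 members tested, 3 were higher and 4 lower in CKO by their estimates, with a median log2 difference of -0.077 beside 0.0044 over all 11574 genes. edgeR called 0 of them, and 0 had an unadjusted p under 0.05, beside 2.75% of all genes (1.43% higher, 1.31% lower). DESeq2 and limma-voom called 0 of them too, and voom gave 0 at an unadjusted p under 0.05, beside 5.15% of all genes. In 0 of the 7 did the groups fail to overlap, beside 9.62% of all genes tested (4.99% higher, 4.62% lower). The fold intervals of Apoe, Clu and Pltp were narrow. Those of the other 4 were wider, at 0.768 to 1.84 for Scarb2, 0.564 to 2.63 for Abcg1, 0.325 to 2.37 for Abca1 and 0.039 to 13.9 for Lrp1.

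**Figure D2:**
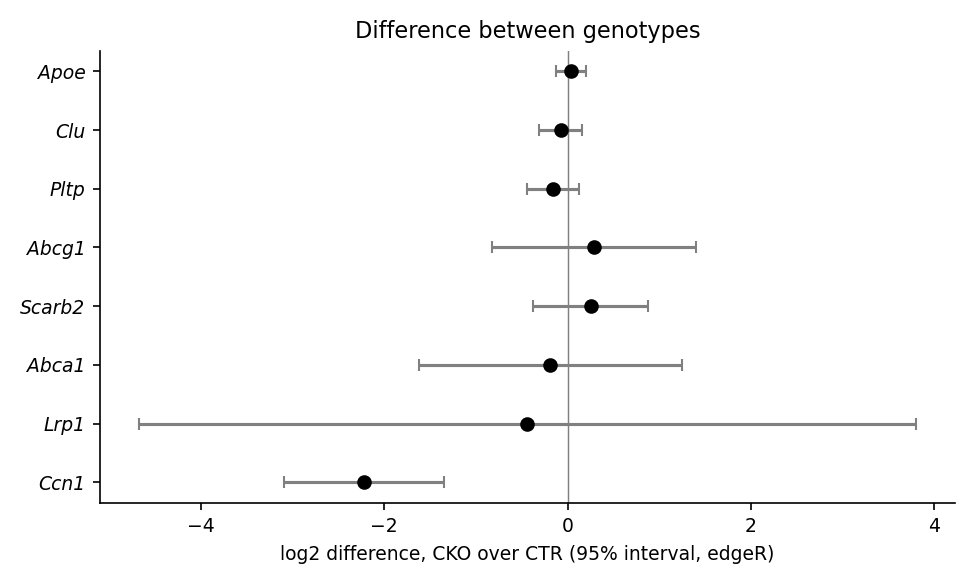
Log2 difference of CKO over CTR from edgeR with its 95% interval for the 7 tested members and Ccn1. Every member's interval includes 0, from -0.13 to 0.20 for Apoe and from -4.68 to 3.80 for Lrp1, while that of Ccn1 runs from -3.10 to -1.34.

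The order of levels over all 6 libraries was Apoe, Clu, Pltp, Abcg1, Scarb2, Abca1, Lrp1, Lpl and Apod. Apoe, Clu and Pltp kept their order in all 6 libraries, with Clu over Pltp at 5.64 to 6.47 and Pltp over Abcg1 at 17.1 to 88.8. Abcg1 and Scarb2, next to each other, did not differ beyond their spread: Abcg1 was higher in 5 libraries and lower in CTR 1. Scarb2 exceeded Abca1 in all 6 and lay beyond its spread in both groups. Abca1 exceeded Lrp1 in all 6, but in the CKO group the gap between their means was smaller than the SD of Abca1. Lrp1 exceeded Lpl in 4 of 6 and was below it in CTR 1 and CTR 2. Lpl exceeded Apod in 4 of 6, and both were at 0 in CKO 3 and CTR 3.

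Ratios between members cancel whatever scales a whole library. Apoe over Pltp was 25.2, 22.4 and 24.8 in CKO libraries, against 19.8, 21.9 and 21.3 in CTR libraries, or 24.1 ± 1.48 and 21 ± 1.06 (SD, n = 3 each). Every CKO library was above every CTR library, by 0.20 in the log2 of the means. The exact permutation test gave p = 0.1, the smallest it can give, and 0.6 after adjustment over the 6 ratios computed. Apoe over Clu was 3.82 ± 0.243 in CKO and 3.51 ± 0.117 in CTR (exact permutation p = 0.2, n = 3 each), and Clu over Pltp was 6.32 ± 0.149 in CKO and 6.0 ± 0.429 in CTR (exact permutation p = 0.4, n = 3 each). The other 3 ratios, among Abcg1, Scarb2 and Abca1, had exact permutation p from 0.3 to 1.

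The spread between libraries of 1 genotype fell with level, and the members differed in how they lay against genes of like level. The SD of log2 CPM within groups was 0.056 for Apoe, below the median of 0.146 for the 27 genes over 3000 CPM, and 0.12 for Clu in the same class. Pltp had 0.113, beside a median of 0.179 for 79 genes between 1000 and 3000 CPM. Scarb2 had 0.253 and Abcg1 0.765, beside a median of 0.365 for 1416 genes between 100 and 300 CPM, so that Abcg1 was more variable than Scarb2 at a like level. Abca1 had 0.917, beside 0.655 for 3008 genes between 30 and 100 CPM. Lrp1 had 3.28, beside 1.8 for 3185 genes between 10 and 30 CPM.

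**Figure D3:**
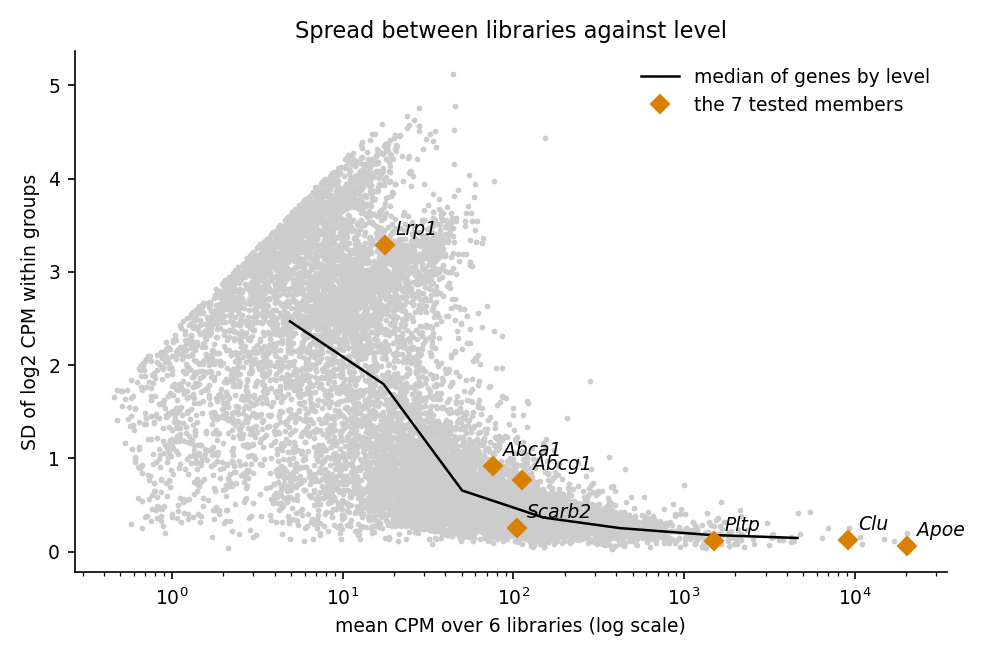
SD of log2 CPM within groups against mean CPM on a log axis, with grey points for all genes tested, a line through the median by level and diamonds for the 7 tested members. Pltp and Scarb2 lie below the line, Abcg1, Abca1 and Lrp1 above it, and Clu at 0.12 and Apoe at 0.056 lie beyond its right end, which is drawn at the middle of the highest class.

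The genes whose centred log2 CPM profile over the 6 libraries was closest to that of Apoe, in a search of 3480 genes whose mean reached 50 CPM, were Anxa2, Slc25a5 and Ckb, at root mean square differences of 0.051, 0.058 and 0.058. They encode annexin A2, a mitochondrial ADP/ATP carrier and brain creatine kinase. For Lrp1, the member with the largest estimated difference, the closest were Mcoln1, Pacrgl and Osbpl9, at 0.825, 1.03 and 1.04. This measure grows with a gene's own spread, so the values of Apoe and Lrp1 are not comparable with each other.

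Markers of other cell types that make lipid carriers were set beside the members as sums of TPM over 10 genes. Ependymal markers summed to 25141 to 26514 TPM in CKO libraries and 24827 to 29684 TPM in CTR libraries, and each of the 10 was above 3 counts in some library. Astrocyte and neural stem cell markers, of cells known to express Apoe and Clu strongly, summed to 2206 to 2610 TPM in CKO libraries and 2186 to 3415 TPM in CTR libraries, below Apoe itself. Microglia markers, of cells that also make Apoe, summed to 125 to 169 TPM in CKO libraries and 135 to 170 TPM in CTR libraries. Choroid plexus markers summed to 411 to 994 TPM in CKO libraries and 582 to 780 TPM in CTR libraries, with Aqp1, Kcne2 and Slc4a5 at 3 counts or fewer in every library.

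Endothelial markers, of cells that bind lipoprotein lipase, summed to 38 to 84.8 TPM in CKO libraries and 39.7 to 68.1 TPM in CTR libraries, and 8 of the 10, Cldn5 and Pecam1 among them, were at 3 counts or fewer in every library. Oligodendrocyte markers summed to 217 to 239 TPM in CKO libraries and 111 to 329 TPM in CTR libraries, with Mog at 3 counts or fewer. Neuron markers summed to 292 to 366 TPM in CKO libraries and 216 to 440 TPM in CTR libraries, with Rbfox3 and Slc17a7 at 3 counts or fewer. Mural and fibroblast markers, of cells known to express Apod, summed to 3.80 to 10.4 TPM in CKO libraries and 1.68 to 2.66 TPM in CTR libraries, and 7 of the 10 were at 3 counts or fewer in every library. The mural and fibroblast sums did not overlap between groups, at a level below every carrier but Apod, while the sums of the other cell types overlapped. Among all genes tested, the groups did not overlap in 9.62% (4.99% higher). The mural and fibroblast sums rested on Col1a2, at 3.77, 4.18 and 3.62 TPM in CKO libraries against 2.14, 1.65 and 2.62 TPM in CTR libraries. Values in single libraries added to this, Igf2 at 6.19 TPM in CKO 2 and Pdgfrb at 2.09 TPM in CKO 3. The part of these cells in the values of the 9 genes was not tested.

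**Figure D4:**
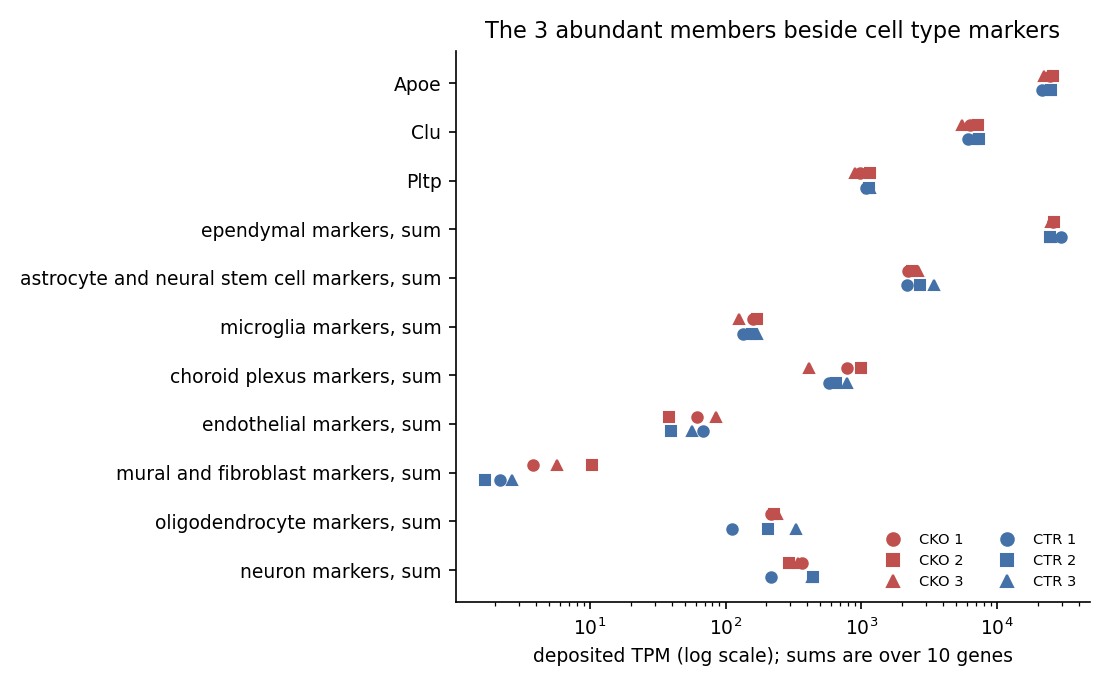
Deposited TPM on a log axis for Apoe, Clu and Pltp, above sums of 10 markers for each of 8 cell types, with CKO libraries in red drawn above CTR libraries in blue. Apoe alone reaches the level of the ependymal sum. The mural and fibroblast sum is the lowest and does not overlap between genotypes, beside 9.62% of all genes tested. The sums of the other cell types overlap.

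The wider pathway was read from 6 lists with 112 genes in all. edgeR called 0 genes in every list, so none rose or fell by that test. The apolipoprotein list had 8 of 21 gene IDs tested, 5 higher and 3 lower by their estimates, with a median log2 difference of 0.068. Besides the members, its most abundant gene was Apoo, a mitochondrial protein of the MICOS complex, with 185 ± 27.1 CPM in CKO and 173 ± 42.2 CPM in CTR (SD, n = 3 each). Lipases and transfer genes had 12 of 19 tested, 7 higher and 5 lower, with a median of 0.098. Psap, the precursor of the saposins that present lipids to lysosomal enzymes, had 403, 416 and 568 CPM in CKO libraries and 136, 565 and 619 CPM in CTR libraries. The mean was higher in CKO at 462 ± 91.6 against 440 ± 265 CPM in CTR, an order that rested on CTR 1 (SD, n = 3 each). Gm2a, the ganglioside activator, had 293 ± 81.9 CPM in CKO and 301 ± 9.66 CPM in CTR, and Npc2, which binds cholesterol in lysosomes, had 231 ± 35.0 CPM in CKO and 194 ± 45.7 CPM in CTR (SD, n = 3 each).

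ABC lipid transporters had 11 of 21 tested, 4 higher and 7 lower, with a median log2 difference of -0.19. Abcd3, a peroxisomal transporter, had 83.7 ± 33.3 CPM in CKO and 56.0 ± 29.7 CPM in CTR. Abcd4, which takes part in lysosomal cobalamin transport, had 1, 13 and 0 counts in CKO libraries and 1, 93 and 160 in CTR libraries. The 1 tested member of this list whose groups did not overlap was Abca3, a phospholipid transporter named after its values were seen, at 6.35 ± 5.34 CPM in CKO and 15.4 ± 4.31 CPM in CTR (log2 -1.28 ± 1.57 SE, edgeR, adjusted p = 0.99999). That is 1 of 11 tested, beside 9.62% of all genes tested whose groups did not overlap (4.62% lower).

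Lipoprotein receptors had 14 of 24 tested, 4 higher and 10 lower, with a median log2 difference of -0.32. Among abundant genes, Lrpap1, the chaperone of LDL receptor family proteins, had 368 ± 97.0 CPM in CKO and 330 ± 15.7 CPM in CTR, and the sorting receptor Sorl1 had 216 ± 7.25 CPM in CKO and 221 ± 76.1 CPM in CTR (SD, n = 3 each). Vldlr, a receptor for reelin and lipoproteins, had 58.1 ± 9.11 CPM in CKO and 74.6 ± 18.2 CPM in CTR.

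The list of LXR regulators and targets holds Apoe, Pltp, Abca1, Abcg1 and Lpl, with 17 of 20 tested, 5 higher and 12 lower and a median log2 difference of -0.20. Apart from those members, its most abundant gene was Smpdl3a, a secreted phosphodiesterase known as an LXR target in human macrophages. Smpdl3a had 376, 254 and 318 TPM in CKO libraries, against 506, 335 and 516 TPM in CTR libraries, with CKO 1 above CTR 2. Its log2 difference was -0.53 ± 0.25 (SE, edgeR, unadjusted p = 0.0692, adjusted p = 0.99999). The LXR genes themselves overlapped between groups: Nr1h2, which encodes LXR beta, had 86.5 ± 44.5 CPM in CKO and 82.1 ± 22.7 CPM in CTR, and Nr1h3, which encodes LXR alpha, had 16.9 ± 15.6 CPM in CKO and 26.0 ± 10 CPM in CTR (SD, n = 3 each). Rxra, which encodes a partner receptor of LXR, was the 1 gene of this list whose groups did not overlap, at 11.6 ± 4.77 CPM in CKO and 3.14 ± 2.44 CPM in CTR (log2 1.88 ± 1.69 SE, edgeR, adjusted p = 0.99999). That is 1 of 17 tested, beside 9.62% of all genes tested whose groups did not overlap (4.99% higher). Nr1h2, Nr1h3 and Rxra were named after their values were seen.

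Fatty acid binding proteins and lipocalins had 9 of 14 tested, 6 higher and 3 lower, with a median log2 difference of 0.15. Dbi, the acyl-CoA binding protein, was the most abundant at 6846 ± 531 CPM in CKO and 7133 ± 1743 CPM in CTR (SD, n = 3 each). Scp2, sterol carrier protein, had 514 ± 35.2 CPM in CKO and 510 ± 73.9 CPM in CTR, and Fabp7, the brain fatty acid binding protein, had 153 ± 44.7 CPM in CKO and 128 ± 34.9 CPM in CTR. Ttr, a thyroid hormone and retinol carrier made by choroid plexus, had 3449, 5768 and 3 counts in CKO libraries, against 75, 1638 and 1901 in CTR libraries, so CKO 3 and CTR 1 were low within their own groups.

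**Figure D5:**
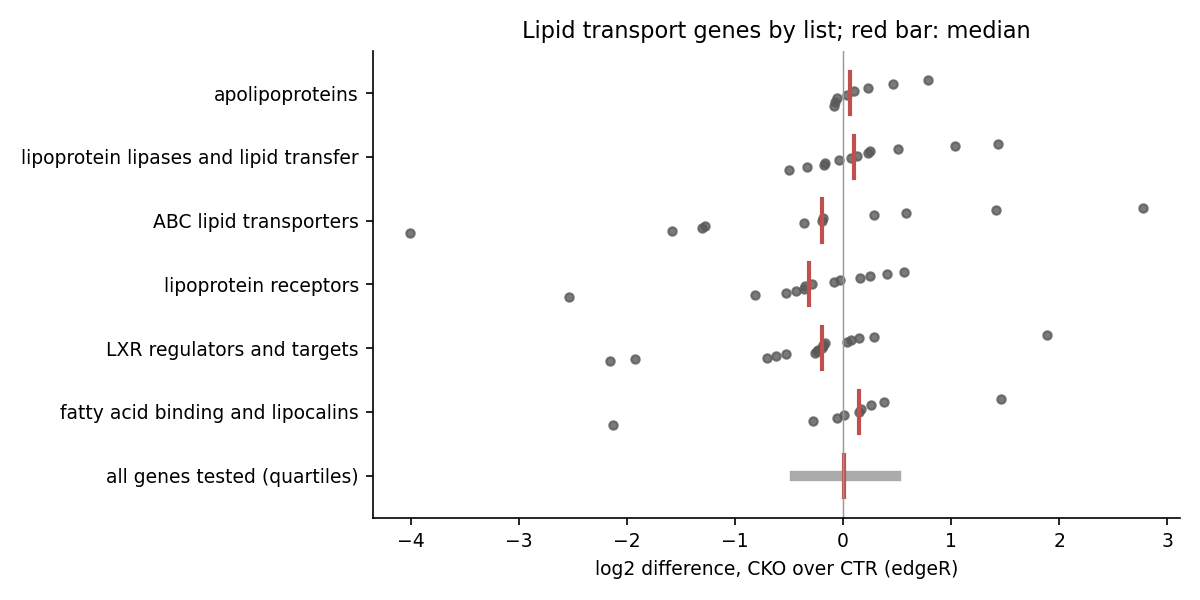
Log2 difference of CKO over CTR from edgeR for tested genes of the 6 lists, with a red bar at the list median and, at the bottom, the quartiles of all genes tested. The medians lie between -0.32 for receptors and 0.15 for fatty acid binding genes, and a result that is not reported here is not drawn.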

How the data were processed

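The data are RNA sequencing of 3 CKO and 3 CTR samples of sorted ependymal cells, grouped and numbered by their titles; the labels name the molecule total RNA in one field and cytoplasmic RNA in another, which was not settled. The submitters' processing notes name CASAVA 1.8, cutadapt 1.11 and kallisto 0.42.5, which shares reads between transcripts by estimate; the sources used here do not give its genome build, annotation or strand setting. Per the file headers, the authors deposited an estimated count and a TPM value per gene. The deposited TPM values sum to 1000000 in each library and were used as levels. The estimated counts were rounded to whole numbers, filtered with filterByExpr (11574 of 19684 genes with a count kept), TMM-scaled and tested by the robust quasi-likelihood test of edgeR 4.0.16 under R 4.3.3 on genotype alone, with Benjamini-Hochberg adjustment over all genes. Alternatives were DESeq2 1.42.0, limma 3.58.1 (voom, and log2(TPM + 1) or log2(TPM + 0.1)), other scalings and filters, a block for the replicate number, and leaving out each library. Exact permutation tests used the 20 assignments of libraries. The tests were checked on simulated data. Coordinates come from GENCODE M21 on GRCm38, matched by unversioned gene ID (99.12%). Reads of near-identical genes are divided by estimate. The members and lists were chosen with earlier results of these data known. Named are the members, Ccn1, from each list the 3 most abundant and the 2 genes with the smallest p, and the closest profiles; others are marked. Some results are not reported here.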

Additional observations from a re-analysis of the deposited data

How the results depend on the processing

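No genes (0) were called in 10 of 12 alternatives and in all 6 fits that left out a library; DESeq2 called 200 (111 higher, 89 lower) and a filter at a mean of 50 CPM called 2 (1 higher, 1 lower). Among the lipid lists, DESeq2 called 1 gene, lower in CKO, and the others 0. Ccn1 stayed lower in CKO, from -2.27 to -2.21 over alternatives and from -2.50 to -1.97 without a library, and passed the threshold in DESeq2 (-2.22). Apoe, Clu, Pltp, Scarb2, Abca1 and Abcg1 kept their sign in all 12 alternatives. Lrp1 turned positive in limma-voom (1.94), on log2(TPM + 1) with and without a filter (0.16 each), on log2(TPM + 0.1) (0.83) and with the replicate block (0.64); the filter at 50 CPM removed Lrp1, and the cause was not tested. With a library left out, the log2 difference ranged from 0.014 to 0.079 for Apoe, -0.16 to -0.0028 for Clu, -0.24 to -0.10 for Pltp, 0.13 to 0.38 for Scarb2, -1.12 to 0.27 for Abca1, -0.089 to 0.76 for Abcg1 and -1.61 to 0.62 for Lrp1. Lpl and Apod were not tested after filterByExpr, so they have no value to compare. To look for pairing, each gene's deviation from its group mean of log2 CPM was correlated between CKO and CTR libraries over 11574 genes. By these deviations, same-numbered libraries correlated at 0.0080, 0.031 and 0.015, and each correlated best with its own number. Genes with a wide spread between libraries entered with the same weight as others. These values therefore cannot decide whether same-numbered libraries share more than a number. The fit with the replicate block called 0 genes. Apod had at most 1.01 counts, too few for a test, and spread between libraries limits Lpl, Abca1, Abcg1 and Lrp1.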

Other observations

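Other apolipoprotein genes were uneven in these cells. Apoc1 encodes a small exchangeable apolipoprotein and lies beside Apoe on the same strand of chromosome 7, with its lower coordinate 6628 bases below that of Apoe. It had 149, 121 and 220 TPM in CKO libraries, against 202, 105 and 197 TPM in CTR libraries. Apoc2 and Apoc4, further along the same cluster, were listed at 0 in every library. Apoc3, best known from liver and intestine, had 81.8, 58.6 and 64.2 TPM in CKO libraries, against 61.0, 52.1 and 59.2 TPM in CTR libraries, and its SD of log2 CPM within groups was 0.255, beside a median of 1.8 for genes between 10 and 30 CPM. Its neighbour Apoa1 on chromosome 9 had 11, 56 and 22 counts in CKO libraries, against 39, 14 and 51 in CTR libraries. Apob was at 3 counts or fewer in every library. Apart from Apoe, the genes of this paragraph lie outside the rule by which genes were named.

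Other genes of the lists were uneven between libraries. Apoh, a plasma apolipoprotein of liver, had 173 counts in CTR 3 and was listed at 0 in the other 5. Ptgds, a lipocalin made by choroid plexus and meninges, had 0, 115 and 0 counts in CKO libraries, against 1, 61 and 517 in CTR libraries. Apool, a mitochondrial relative of Apoo, had 15.7, 58.1 and 11.6 CPM in CKO libraries, against 0, 22.0 and 27.5 CPM in CTR libraries. Nr1h3 was at 0 in CKO 1 and at 16.9 ± 15.6 CPM over CKO. These genes were named after their values were seen.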
